A study of Mus musculus with 2931 samples.

Results

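The Car4- capillary cells of mouse lung were compared between postnatal day 21 (P21) and postnatal day 7 (P7), both in normal air. A cell was a member when the authors' subtype label was Early Car4- capillaries or Late Car4- capillaries and its name gave 1 of the 2 ages. These were 862 of the 2931 endothelial cells in the series, 206 from the P7 female mouse, 116 from the P7 male, 272 from the P21 female and 268 from the P21 male. The cells were sorted by flow cytometry from distal lung, most of them from a gate named CD31 after an adhesion protein on the surface of endothelial cells, and each cell was sequenced on a plate as full-length cDNA cut by the Tn5 transposase. A mouse name, which may stand for 1 animal or for a pool, was the replicate, so each age had n = 2, 1 female and 1 male. Car4- capillaries of 2 further groups, P1 in normal air and P7 in hyperoxia (breathing raised oxygen), each again 1 female and 1 male, served to estimate the spread, with 1450 Car4- cells in the fit in all. Strain and genotype of these mice were not given in the sources used here.

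Lung capillaries hold the blood that exchanges gas with the alveoli. They come in a rare kind with the membrane carbonic anhydrase Car4 and a common kind without much of it, the general capillary cell, which carries markers such as Gpihbp1, a lipase anchor, and Plvap, a protein of fenestral diaphragms. In the mouse the alveoli form in the first weeks after birth, and the capillary bed grows and thins over the same weeks.

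The sums over Car4- cells held 184368727 reads in the P7 female, 29242793 in the P7 male, 195034861 in the P21 female and 123352514 in the P21 male. Median reads per cell were 860010, 188388, 659708 and 326631 in the same order, and the median number of genes among 50000 reads drawn from each cell was 2027, 3243, 2080 and 1197. At that fixed depth the P21 male had the fewest genes per cell and the P7 male the most, while the females were alike. The part of this in the results was not tested. Label and age were nearly the same split: 44 of 206 and 2 of 116 cells at P7 carried the Late label, against 268 of 272 and 265 of 268 at P21. The labels come from expression, so the number of Late cells was not tested here. Some P21 cells, 50 in the female and 83 in the male, came from a gate named mesench, against 9 and 3 at P7. All 10 general capillary markers were read in all 4 mice: Gpihbp1 was at 1481 and 1956 reads per 1000000 (CPM) in the P7 female and male and at 2768 and 2726 in the P21 mice.

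Of 14660 genes tested, 39 (0.266%) passed an adjusted p of 0.05 in edgeR's quasi-likelihood test, 26 higher at P21 (0.177%) and 13 lower (0.0887%). The genes that rose included 4 listed heat shock genes and 3 listed interferon-stimulated genes, and those that fell included 3 listed imprinted genes and 2 listed cytoskeletal genes. In all 39 the CPM of both P21 mice lay outside those of both P7 mice, which was also so for 19.7% of all genes tested upward and 21.5% downward. Both P21 mice also lay above all 6 younger mice, P1 and hyperoxia included, for 26 of 26 higher genes (6.63% of all genes tested) and below them for 13 of 13 lower genes (6.71%). That second comparison uses the same P21 mice, so it is not a separate test. Without the P7 female the test called only Bok, without the P21 male only AU020206 and Gins2, and without the P7 male 8 genes, 6 of them among the 39. Without the P21 female it called 38 genes, 18 of them among the 39.

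**Figure D1:**
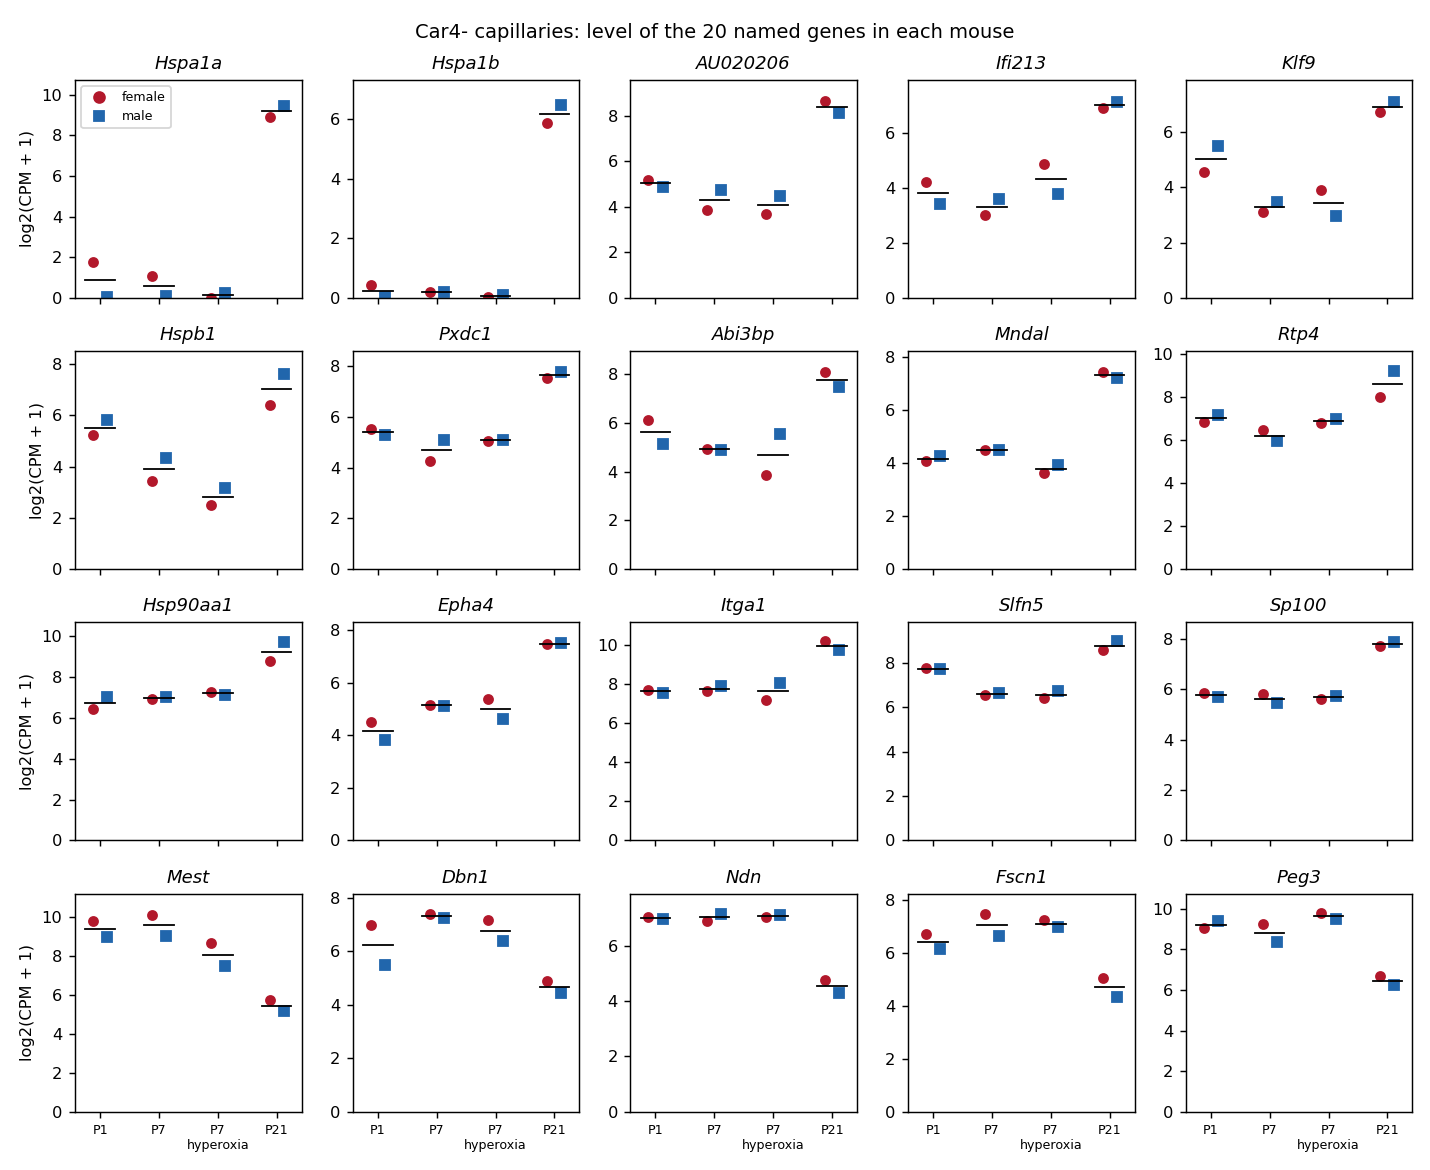
Level of 20 called genes, as log2(CPM + 1) of reads summed over Car4- cells, in each mouse of 4 groups: red circles are females, blue squares males and black bars the mean of the 2 mice. The P21 mice lie above all 6 younger mice in the 15 genes of the first 3 rows and below them in Mest, Dbn1, Ndn, Fscn1 and Peg3.

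Some stress chaperones rose by P21. Of 21 chaperones and co-chaperones, 4 rose, none fell and 17 did not pass, and 13 had both P21 mice above both P7 mice, against 19.7% of all genes tested. The list's median fitted log2 change was 1.14, against 0.06 over all genes tested. The pair Hspa1a and Hspa1b, near-identical neighbours that encode the stress-inducible cytosolic chaperone, went from almost no reads to a common transcript. Hspa1a had 1.11 CPM in the P7 female, 0.0684 in the P7 male, 477 in the P21 female and 708 in the P21 male (log2 change 9.91 ± 1.72 SE, adjusted p = 0.0421). Reads of Hspa1a lay in 1 of 206 and 2 of 116 cells at P7, and at 50000 reads per cell in 31.6% and 50.4% of cells at P21. Hspa1b was at 0.141 and 0.137 CPM at P7 and 57.4 and 87.1 at P21 (adjusted p = 0.0245). Because reads can be split between such copies, their separate levels are uncertain.

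Further chaperones passed as well. Hspb1, a small heat shock protein that binds actin and unfolded clients, had 9.98 and 19.4 CPM at P7 and 84.4 and 195 at P21 (log2 change 3.42 ± 0.61, adjusted p = 0.045). Hspb1 was not a gene silent before P21, since the P1 mice had 36.9 and 54.6 CPM. Hsp90aa1, the inducible cytosolic HSP90, had 121 and 127 CPM at P7 and 430 and 837 at P21 (2.51 ± 0.46, adjusted p = 0.045). The constitutive members did not pass: Hspa8 had 941 and 725 CPM at P7 and 604 and 1091 at P21, and Hsp90ab1 1900 and 2275 against 2551 and 3405. Among the 540 P21 cells, each at 50000 drawn reads, 89.6% of the 221 cells with an Hspa1a read also had an Hsp90aa1 read, against 51.1% of the 319 without. For Hspa1b these shares were 57.0% and 11.6%. For Itga1, a gene outside the list, they were 88.2% and 82.8%. The list's median was 0.33 without the P21 male, against 1.40 without the P21 female.

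Immediate early genes, whose transcripts appear within minutes of a stimulus, lay mostly in the same direction, although none of the 20 passed the adjusted test. Their median log2 change was 1.04, and 13 had both P21 mice above both P7 mice, against 19.7% of all genes tested. Atf3, a stress-induced transcription factor, was nearest, with 31.4 and 71.0 CPM at P7 and 445 and 960 at P21 (3.94 ± 0.76, adjusted p = 0.0617). Atf3 reads were found in 61.5% of P21 cells with an Hspa1a read and 23.2% of those without. Fos had 367 and 1341 CPM at P7, 1750 and 1370 at P21, and 1541 and 1268 at P1, so its levels at P21 and P1 overlapped. Dusp1 had 1056 and 871 CPM at P7 and 1326 and 1687 at P21. Times of tissue handling were not given in the sources used here.

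The promoters of the stress genes that rose are shown because the copies share them. RefSeq's table (GRCm38.p6) holds 250 bases before the start of 30 of the 39 called genes. The letters searched were GAANNTTC, a pair of heat shock element units, on both strands. They were chosen after the called genes were known, and were found before 6.11% of the tested genes with an entry and before 5 of 21 higher genes. They also stood before 0 of 9 lower genes, 7 of 16 listed heat shock genes and 5 of 13 listed proliferation genes with an entry. Stretches of the gene's own strand follow, each with 1 match in capitals. The Hspb1 stretch ends in a further match, left in lower case.
Hspa1a, chr17:34972233-34972280, minus strand: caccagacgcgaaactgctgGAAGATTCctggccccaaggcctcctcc
Hspa1b, chr17:34959315-34959362, minus strand: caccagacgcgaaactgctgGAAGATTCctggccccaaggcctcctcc
Hspb1, chr5:135887782-135887829, plus strand: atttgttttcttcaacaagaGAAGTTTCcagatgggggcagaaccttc
The stretches of Hspa1a and Hspa1b are the same, letter for letter. The other matches among higher genes were in Ifi206 and Ifi213. A match describes letters and is not a site.

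Some interferon-stimulated genes rose by P21. Of 14 listed genes, 3 rose, Ifit1, Ifit3 and Igtp. Both P21 mice lay above both P7 mice in 13, against 19.7% of all genes tested. The median log2 change was 2.96, and 12 had an unadjusted p under 0.05, which was so upward for 5.91% of all genes tested and downward for 4.6%. Further called genes outside the list are known interferon targets too: Ifit3b, Ifi206, Ifi213, Mndal, Slfn5, Sp100 and Rtp4. These were picked out after their values were seen. Without cells carrying markers of other tissues the 3 listed genes missed the threshold, with edgeR adjusted p of 0.0697 for Ifit1, 0.0678 for Ifit3 and 0.0646 for Igtp and with log2 changes of 4.47 for Ifit1 and 3.12 for Igtp.

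Ifit1, which binds foreign RNA caps, had 13.9 and 6.36 CPM at P7 and 152 and 249 at P21 (4.44 ± 0.77, adjusted p = 0.0421). Ifit3, its partner and neighbour, had 1 read in all 322 P7 cells and 59.0 and 240 CPM at P21. Ifit3 was not silent in all younger mice, with 9.27 and 0 CPM at P1 and 6.59 and 13.7 at P7 in hyperoxia. The ratio of its CPM over all cells was 27547, with a 95% counting interval from 4944 to 1088080, and its copy Ifit3b, also with 1 read at P7, had 12.4 and 28.1 CPM at P21 (ratio 3946, interval 708 to 155872). Igtp, an interferon-inducible GTPase, had 19.6 and 22.6 CPM at P7 and 101 and 215 at P21 (3.06 ± 0.51, adjusted p = 0.0388). Each of the 3 was read in few cells. At 50000 reads, Ifit1 was found in 1.94% and 5.31% of P7 cells and 12.5% and 11.2% of P21 cells. A minority of cells held the transcript, and 5 cells held 62.0% of the Ifit1 reads at P21.

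The same cells tended to hold several of these transcripts. Of 64 P21 cells with an Ifit1 read, 39.1% also had an Ifit3 read, against 7.35% of the 476 others. For Rtp4, an interferon-induced chaperone of receptors, the shares were 70.3% and 29.6%. For Hspa1a they were 45.3% and 40.3%, a much smaller gap. These are descriptions over cells, which share a mouse and differ in depth.

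The sort gates can be set side by side at P21. Ifit1 had 68.1 CPM in CD31-gate cells and 563 in mesench-gate cells of the P21 female, and 53.4 and 532 in the P21 male. The share of cells with an Ifit1 read was 13.1% (CD31) and 10% (mesench) in the female and 10.9% and 12.05% in the male. A single cell held 55.2% and 54.2% of the mesench-gate Ifit1 reads. Of the 26 higher genes, 6 were higher in the mesench gate in both mice, as were 14.7% of all genes tested. They were Hpcal4, Ifit1, Igtp, Ifi203-ps, Rtp4 and Itga1. With CD31-gate cells alone 31 genes were called, 26 of them among the 39. Those lost were Ifit1, Ifit3b, Igtp, Rtp4, Ifi203-ps, Sp100, Itga1, Hpcal4, Peg3, Fscn1, Dbn1, Tgfbi and St6galnac5.

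Slfn5, a Schlafen protein, had 91.0 and 98.8 CPM at P7 and 373 and 497 at P21 (2.33 ± 0.38, adjusted p = 0.0322) and was read in 33.0% and 54.9% of P7 cells and 69.9% and 57.8% of P21 cells. Sp100, a protein of nuclear bodies, had 55.1 and 43.1 CPM at P7 and 210 and 238 at P21 (2.31 ± 0.38, adjusted p = 0.033). Rtp4 had 87.0 and 60.9 against 258 and 600. The higher genes Ifi206, Ifi213, Ifi203-ps and Mndal are neighbours in the cluster of the PYHIN family, interferon-inducible nuclear proteins, on chromosome 1. Ifi206 had 0.987 and 0.479 CPM at P7 and 34.96 and 57.0 at P21 (6.08 ± 1.07, adjusted p = 0.045), and Ifi203-ps 7.97 and 16.8 against 111 and 77.4 (adjusted p = 0.045). Ifi213 had 7.09 and 11.1 CPM at P7 and 118 and 140.1 at P21 (adjusted p = 0.0245). Mndal had 21.7 and 21.95 against 173 and 147 (adjusted p = 0.0245). Members of this cluster resemble each other, so reads may have been assigned among them with error.

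Promoters of several of these genes hold the same letters. The core of the interferon-stimulated response element, GAAANNGAAA, was searched on both strands. It stood in the 250 bases before 3.13% of tested genes with an entry, 8 of the 21 higher genes, 1 of the 9 lower genes (Tgfbi) and 7 of the 12 listed interferon genes with an entry. The 8 were Ifit1, Ifit3, Ifit3b, Igtp, Ifi206, Ifi213, Mndal and Slfn5. The stretches below, on the gene's own strand with 1 match each in capitals, are shown to compare the copies. In the Ifit genes the match lies on the opposite strand and so reads as its reverse complement, and the Ifit1 stretch holds a further match in lower case.
Ifit1, chr19:34640765-34640814, plus strand: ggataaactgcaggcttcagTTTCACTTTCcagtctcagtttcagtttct
Ifit3, chr19:34583353-34583402, plus strand: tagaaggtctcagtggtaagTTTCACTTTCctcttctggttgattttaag
Ifit3b, chr19:34607749-34607798, plus strand: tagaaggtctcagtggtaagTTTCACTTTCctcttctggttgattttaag
Igtp, chr11:58199502-58199551, plus strand: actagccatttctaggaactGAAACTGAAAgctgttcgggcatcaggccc
Ifi206, chr1:173491329-173491378, minus strand: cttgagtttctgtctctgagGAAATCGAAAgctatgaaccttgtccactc
Ifi213, chr1:173599316-173599365, minus strand: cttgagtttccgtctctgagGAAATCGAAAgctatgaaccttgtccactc
Mndal, chr1:173880194-173880243, minus strand: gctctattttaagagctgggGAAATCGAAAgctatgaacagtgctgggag
Slfn5, chr11:82951927-82951976, plus strand: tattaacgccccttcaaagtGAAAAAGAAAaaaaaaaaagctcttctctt
The Ifit3 and Ifit3b stretches are the same, and the 3 genes of the chromosome 1 cluster hold the same 10 letters. The motif was chosen after the called genes were known. The letters of an E2F motif, TTTNGCGC, were searched too. They stood before 2.23% of tested genes with an entry, 1 of 9 lower genes (Dtl) and 0 of 21 higher genes. Of 13 listed proliferation genes with an entry, 2 held them.

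Genes of antigen presentation lay in the same direction without passing. All 14 class I genes had a positive log2 change (median 1.19), but none passed the adjusted test. In 12, both P21 mice lay above both P7 mice, against 19.7% of all genes tested. B2m, the light chain, had 1421 and 1451 CPM at P7 and 3639 and 4428 at P21 (adjusted p = 0.182). H2-K1, a heavy chain, had 940.4 and 858 against 2339 and 1913 (adjusted p = 0.179). Class II genes summed to 17.7 and 6.36 CPM at P7 and 110 and 115 at P21, and Cd74, the class II chaperone, had no read at P7 and 3.71 and 2.89 CPM at P21.

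**Figure D2:**
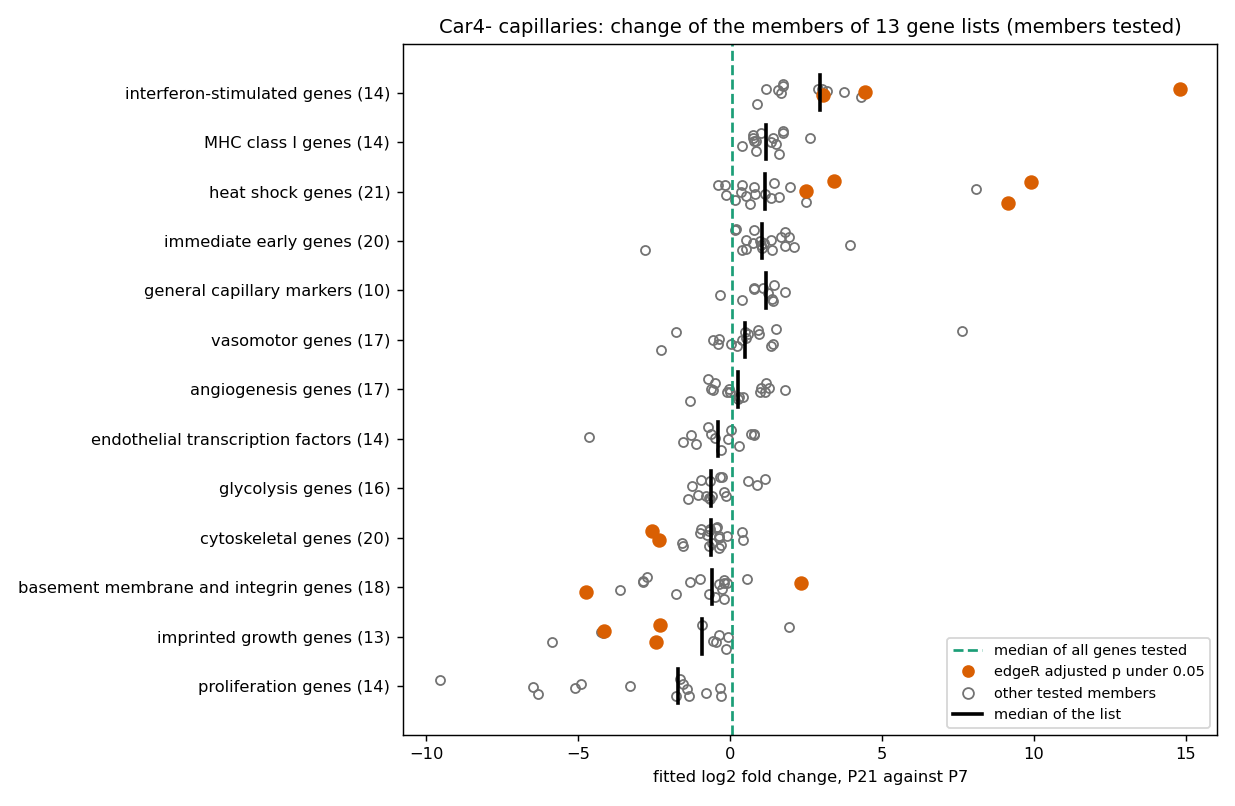
Fitted log2 fold change of P21 against P7 for the tested members of 13 gene lists; filled points passed edgeR's adjusted p of 0.05, black bars are list medians and the dashed line is the median of all genes tested (0.06). The point of Ifit3 rests on 1 read at P7. Medians run from 2.96 for interferon-stimulated genes to -1.71 for proliferation genes.

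Further higher genes concern adhesion, matrix and signalling. Itga1, the alpha chain of a collagen and laminin integrin, had 199 and 236 CPM at P7 and 1178 and 878 at P21 (2.35 ± 0.40, adjusted p = 0.0421), and the 4 P1 and hyperoxia mice were between 145 and 272. It was read in most cells at both ages, 52.9% and 88.5% at P7 and 91.5% and 78.4% at P21, so the shares overlapped while the levels did not. Abi3bp, an extracellular matrix protein, had 29.8 and 28.9 CPM at P7 and 270.5 and 176 at P21 (3.03 ± 0.55, adjusted p = 0.045). Epha4, a receptor for ephrins, had 34.6 and 34.1 against 177 and 181 (2.503 ± 0.43, adjusted p = 0.0421), with the P21 mice nearly equal. Hs3st1, an enzyme that sulfates heparan chains, had 34.7 and 42.6 against 204 and 147 (adjusted p = 0.045).

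Klf9, a transcription factor induced by glucocorticoids and thyroid hormone, had 7.55 and 10.1 CPM at P7 and 104 and 137 at P21 (3.91 ± 0.61, adjusted p = 0.0258). Its P1 levels of 22.9 and 43.8 CPM lay between the 2 ages. Pxdc1 had 18.2 and 33.5 CPM at P7 and 183 and 220.4 at P21 (3.10 ± 0.44, adjusted p = 0.0245). AU020206, a gene known only by its clone name, had 13.5 and 25.5 CPM at P7 and 396 and 275 at P21 (4.21 ± 0.48, adjusted p = 0.00686). It went from 11.2% and 23.9% of cells to 74.3% and 44.0%. Pcp4l1 had 3.36 and 7.28 CPM at P7 and 113 and 142 at P21 (4.73 ± 0.78, adjusted p = 0.0355).

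Some called genes were read in few cells. Mgp, matrix Gla protein, an inhibitor of calcification listed here among arterial markers, had 3.78 and 0.855 CPM at P7 and 216 and 92.3 at P21 (6.10 ± 0.97, adjusted p = 0.0296). Only 12.9% and 10.8% of P21 cells had an Mgp read at 50000 reads, and 1 cell held 61.9% of its P21 reads. Inmt, an amine methyltransferase, had 3 reads in all P7 cells and 182 and 129 CPM at P21, in 11.03% and 10.8% of cells (ratio 11481, interval 3928 to 55674). At P1, Inmt had 0 CPM in the female and 12.4 in the male. At P21, Inmt was read in 31.2% of the 64 cells with Mgp and 8.19% of the 476 others. Without cells carrying markers of other tissues, both missed the threshold. Their edgeR adjusted p was 0.143 for Mgp and 0.0929 for Inmt, with log2 changes of 6.32 and 12.4. Hpcal4, a neuronal calcium sensor, had 2 reads at P7 and 34.9 and 28.2 CPM at P21 (ratio 3452, interval 955 to 28504). The other arterial markers did not pass: Gja4 had 768 and 1036 CPM at P7 and 704 and 383 at P21, and Cxcl12 638 and 517 against 954 and 713.

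Some imprinted genes fell. Of 16 listed imprinted growth genes 13 could be tested, 3 fell, against 0.0887% of all genes tested, and none rose. In 10, both P21 mice lay below both P7 mice, against 21.5% of all genes tested. The median fitted log2 change was -0.92. The median log2 ratio of CPM with reads pooled over the mice of an age was -1.46. Mest, a paternally expressed gene of fetal growth, had 1118 and 526 CPM at P7 and 51.5 and 35.5 at P21 (-4.14 ± 0.53, adjusted p = 0.0118). It was read in 80.1% and 84.1% of P7 cells and 19.1% and 10.8% of P21 cells. Peg3, a paternally expressed zinc finger protein, had 609 and 332 CPM at P7 and 102 and 74.8 at P21 (-2.31 ± 0.42, adjusted p = 0.045). Ndn, the growth suppressor necdin, had 119 and 142 against 25.99 and 18.7 (-2.44 ± 0.37, adjusted p = 0.0245). P1 levels were near those of P7 for Ndn (132 and 124 CPM) and Peg3 (538 and 664).

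Other members lay the same way with wider error. H19 had 77.4 and 54.6 CPM at P7 and 6.56 and 0.292 at P21 (adjusted p = 0.176), and Plagl1, a zinc finger regulator of other imprinted genes, 29.2 and 17.9 against 0.733 and 0.0405 (adjusted p = 0.0885). Gnas, the most abundant, differed little, with 828 and 669 against 664 and 655 CPM (-0.06 ± 0.35). It was read in nearly all P7 male cells, 114 of 116.

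Actin-binding genes were among those that fell. Of 20 cytoskeletal genes 2 fell, Dbn1 and Fscn1, and 17 had both P21 mice below both P7 mice, against 21.5% of all genes (median -0.63). Dbn1, drebrin, which binds actin filaments, had 169 and 149 CPM at P7 and 28.6 and 21.03 at P21 (-2.58 ± 0.47, adjusted p = 0.045). Fscn1, fascin, which bundles actin in filopodia, had 178 and 97.8 against 32.1 and 19.4 (-2.33 ± 0.43, adjusted p = 0.045). Both dropped in share of cells, Fscn1 from 67.0% and 79.6% to 19.5% and 14.9%. Both calls were lost with CD31-gate cells alone. Vim, vimentin, had 2241 and 3348 CPM at P7 and 1560 and 1055 at P21 (adjusted p = 0.423), and Tmsb4x, which binds actin monomers, had 2688 and 3720 against 3726 and 4203.

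Among 18 basement membrane and integrin genes Nid2 fell and Itga1 rose. Nid2, a nidogen that links laminin to collagen, had 50.9 and 20.1 CPM at P7 and 1.05 and 1.41 at P21 (-4.73 ± 0.68, adjusted p = 0.0245). Lamb1, a laminin chain, had 43.8 and 14.3 against 3.99 and 4.02 (adjusted p = 0.0799). The abundant Sparc (4745 and 5883 against 3737 and 3162 CPM) and Col4a1 (1156 and 1312 against 1073 and 909) did not pass.

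Cell cycle regulators were among the genes that fell to almost no reads. Cells that the authors labelled Proliferative EC are not members, so these values cover only cells with a Car4- label. None of the 14 proliferation genes passed (median fitted log2 change -1.71). In 10, both P21 mice lay below both P7 mice, against 21.5% of all genes tested. The median log2 ratio of CPM with reads pooled over the mice of an age was -2.64. Outside that list, 3 called genes belong to the cell cycle. E2f1, a transcription factor of S phase entry, had 30.0 and 21.3 CPM at P7 and 0.041 and 0.0324 at P21 (-9.295 ± 1.19, adjusted p = 0.0118). Dtl, a substrate adaptor of a replication-linked ubiquitin ligase, had 20.6 and 11.4 against 0.0923 and 0.105 (-7.21 ± 1.15, adjusted p = 0.0296). Pbk, a mitotic kinase, had 32.8 and 12.9 CPM at P7 and no read in the 540 P21 cells, at least 3195-fold lower with 3 reads over the group as the floor.

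These were transcripts of few cells even at P7. E2f1 was read in 9.71% and 13.3% of P7 cells, Dtl in 7.77% and 6.19% and Pbk in 2.43% and 6.19%, and 5 cells held 97.1% of the Pbk reads. Bok, a BCL2 family member, had 31.9 and 14.2 CPM at P7 and 3 reads at P21 (adjusted p = 0.00686), a ratio of 3132 with an interval from 1071 to 15189. Cd109, a co-receptor of TGF-beta, had 10.2 and 2.80 CPM at P7 and 0.0359 and 0.0324 at P21 (adjusted p = 0.0258). Tgfbi, a secreted matrix protein, had 44.1 and 17.7 against 1.40 and 0.673 (adjusted p = 0.0439). St6galnac5, a sialyltransferase, had 11.8 and 9.17 against 0.0513 and 0.0162 (adjusted p = 0.0462). For Bok, Tgfbi and St6galnac5, 5 cells held 79.2%, 81.4% and 94.96% of the P7 reads.

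**Figure D3:**
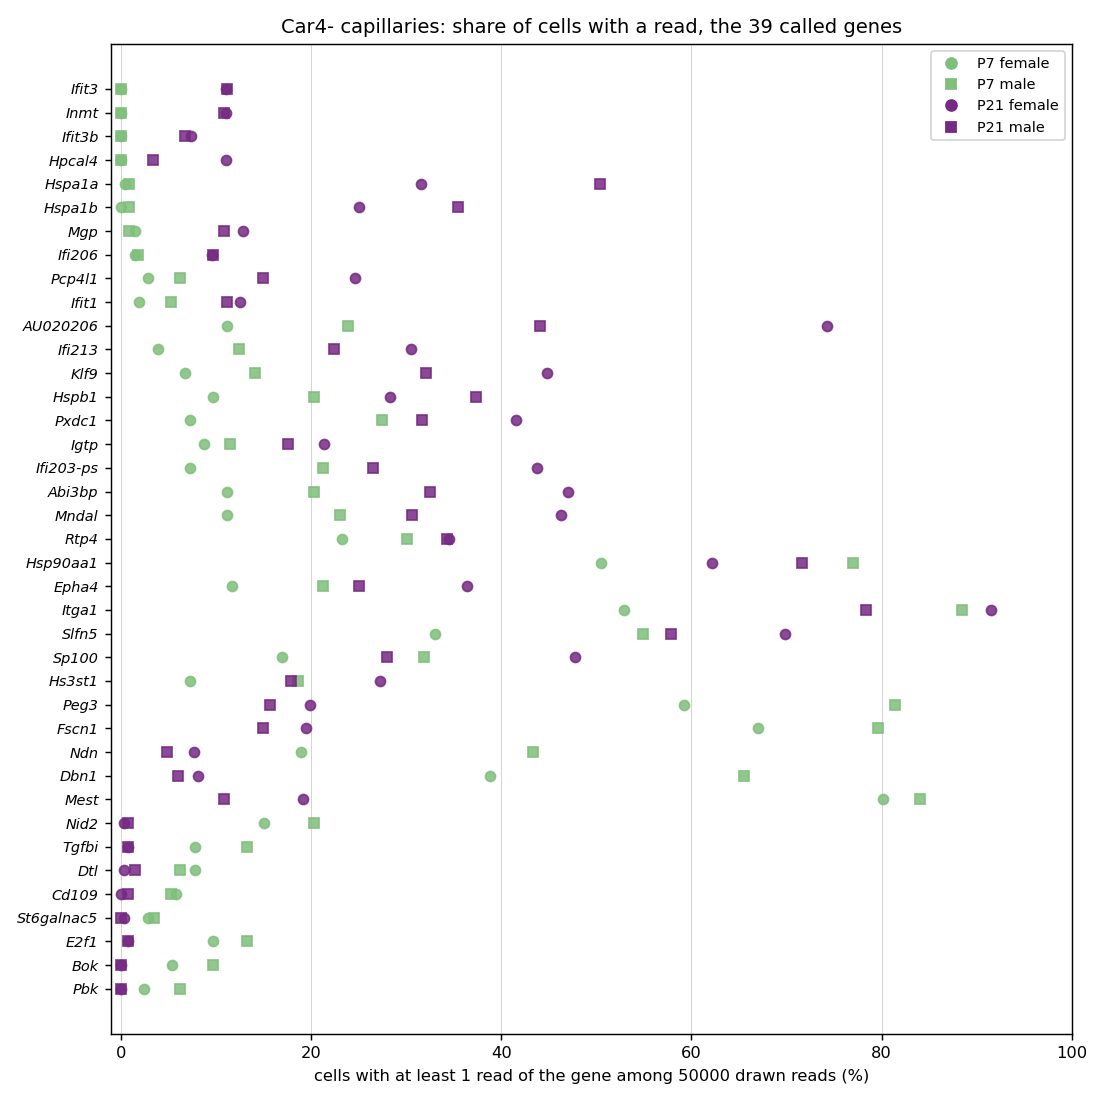
Percent of Car4- cells with at least 1 read of each of the 39 called genes when 50000 reads are drawn per cell, by mouse (green P7, purple P21, circles female, squares male). The shares at P21 lie above both P7 mice for 22 of 26 higher genes and below both for 13 of 13 lower genes.

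The share of cells showed how each difference was spread. The 4 higher genes whose shares overlapped between ages were Hsp90aa1, Itga1, Sp100 and Hs3st1. Over 50% of a gene's reads at its higher age lay in 5 cells for 13 of the 39, 5 higher and 8 lower. A share of 0 in the P7 male, the smallest set with 113 cells deep enough, allows up to 2.65% of cells. In bulk sums such as these, fewer cells with a transcript and less RNA per cell cannot be told apart, beyond these shares at fixed depth.

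Markers of the class were not called. Of 10 general capillary markers 8 had both P21 mice above both P7 mice, against 19.7% of all genes tested, and none passed. The median log2 change was 1.18 (0.59 in the male CD31-gate pair described below). Plvap had 1128 and 1116 CPM at P7 and 2551 and 1913 at P21 (adjusted p = 0.341), and Cd93 1501 and 2524 against 2507 and 2351. Car4 itself had 175 and 405 CPM at P7 and 380 and 698 at P21 (adjusted p = 0.535), with more in the male at both ages. Cyp4b1, a cytochrome listed with Car4+ capillaries, had 518 and 471 against 1355 and 1967 (adjusted p = 0.0885). Of the fatty acid handling genes, Cd36 had 1384 and 923 CPM at P7 and 2918 and 3283 at P21 (adjusted p = 0.184). None of 16 glycolysis genes passed (median -0.63), and Ldha had 808 and 763 against 333 and 369 CPM (adjusted p = 0.322). No member passed among venous, lymphatic and pan-endothelial markers, fetal growth, angiogenesis, vasomotor, circadian clock, leukocyte adhesion, coagulation, BMP and TGF-beta, transcription factor and p53 target lists.

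The Late label was also present at P7, so label and age could be set side by side in 1 mouse. The P7 female had 162 Early and 44 Late cells. These differed in depth and complexity: median reads per cell were 950650 in Early and 478914 in Late cells, and median genes at 50000 reads 2342 and 772, against 2080 in the Late cells of the P21 female. The share of cells with a read was lower in Late than in Early P7 cells for 19 of the 26 higher and 13 of the 13 lower genes, and the part of this in the values by label was not tested. On the log2(CPM + 1) scale, the Late P7 cells were nearer to the P21 female than to the Early P7 cells for 2 of the 26 higher genes, Mgp and Rtp4, and for 7 of the 13 lower genes. Over all genes tested this was so for 6538 of 14660. The called genes were chosen for a gap between the ages with these same cells, so their counts are partly built in. All genes tested were not chosen in this way and are not a like background. Hspa1a had no read in the 44 Late P7 cells against 483 CPM in the Late P21 cells of the female, and Itga1 had 182 CPM in Early P7, 314 in Late P7 and 1189 in Late P21 cells. The share of cells with an Itga1 read ran otherwise, 58.0% in Early P7, 34.1% in Late P7 and 91.4% in Late P21 cells. Mest was at 1201, 542 and 52.3 CPM in that order, and Fscn1 at 201, 17.7 and 32.5. Mgp was at 0.00621, 29.8 and 219 CPM, and Ndn, which ran the other way within P7, at 80.8, 384.5 and 26.4. When the 4 groups were limited to Early cells before P21 and Late cells at P21, 42 genes were called, 37 of them among the 39.

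**Figure D4:**
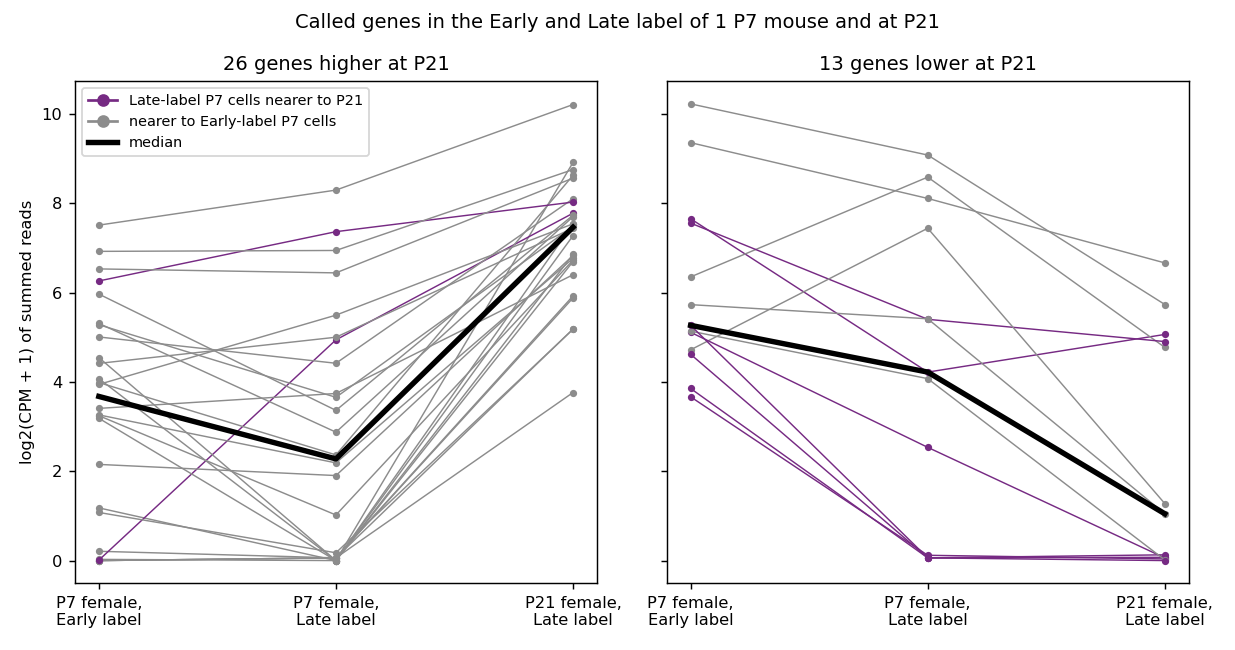
Level of the called genes, as log2(CPM + 1) of summed reads, in Early-label and Late-label Car4- cells of the P7 female and Late-label cells of the P21 female; thin lines are genes and thick lines medians. Purple genes, 2 of 26 higher and 7 of 13 lower, have a Late P7 value nearer to the P21 value.

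Markers of other lung cells were read in some cells of the class. Summed CPM of 12 immune markers was 12.2 and 39.4 at P7 and 30.6 and 28.7 at P21, and that of 12 mesenchymal markers 23.7 and 30.3 against 27.9 and 45.3. Summed epithelial markers were higher at P21, 174 and 217 against 38.5 and 84.5 CPM. Of these, Sftpc, a surfactant protein of alveolar type II cells, had 76.0 and 169 against 21.8 and 39.7, while the keratin Krt8 had 0.641 and 0 against 6.77 and 11.7. Erythroid and platelet markers were at 12.2 and 97.4 at P7 and 36.7 and 7.39 at P21. Both P21 mice lay above both P7 mice for 3 of 6 immune, 3 of 8 epithelial, 6 of 10 mesenchymal and 3 of 7 erythroid and platelet markers tested, against 19.7% of all genes, and none passed. They lay below for 2 of 8 epithelial markers. The listed epithelial markers Epcam and Foxj1 had 1 and 0 reads at P7 and 23 and 3 at P21. Scgb1a1, also listed, had 3.05 and 5.68 CPM at P7 and 25.8 and 34.7 at P21. Krt18 had 2.07 and 0.992 CPM at P7 and 0.0205 and 0.0486 at P21. The part of other cells in the results was not tested beyond this. Leaving out every cell with 100 CPM or more of these markers, an alternative chosen after seeing the data, left 14 called genes, 12 of them among the 39: Hspa1a, Hspa1b, AU020206, Klf9, Pxdc1, Mndal, Hs3st1, Hpcal4, Mest, Tgfbi, E2f1 and Bok. The other 27 missed the threshold, among them the 3 listed interferon genes, Hspb1 (adjusted p = 0.202), Hsp90aa1 (0.0658), Itga1 (0.0678), Peg3 (0.0859), Ndn (0.0538), both actin-binding genes, Nid2, Dtl and Pbk.

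The DC code in the cell names, called run here, could be held constant with the gate in the males and without it in the females. The labels do not say what this code stands for. Both CD31-gate male sets, 111 cells at P7 and 184 at P21, came from 1 run. All 39 called genes had the same direction in that pair, for which no test is possible. Its cells were among those that gave the calls, so the shared direction is not separate support. Hspa1a was at 0.0875 and 780.4 CPM, Mest at 533 and 30.2, Itga1 at 279 and 825, and Ifit1 at 8.14 and 53.4. The females share a run only across gates, with 197 CD31-gate cells at P7 and 50 mesench-gate cells at P21, a pair added after seeing the data. All 39 genes had the same direction there too, with Hspa1a at 1.16 and 918 CPM, Mest at 1135 and 117, and Itga1 at 208 and 1247. In that pair gate and age cannot be told apart, and its cells too were among those that gave the calls. For neither pair is the share of all genes tested with the same direction given.

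Car4+ capillaries, with 200 cells at the 2 ages (42 and 24 at P7, 57 and 77 at P21), were compared for the same change. The difference between the classes, tested as an age by class interaction with sums paired by mouse, passed for 1 of 14711 genes (0.0068%), Gap43, a growth cone protein that binds calmodulin. Gap43 had 10.6 and 5.64 CPM at P7 and 27.6 and 23.2 at P21 in Car4- cells, and 65.0 and 30.5 against 0.219 and 0.0564 in Car4+ cells. The difference of the log2 changes was 10.36 ± 0.97 (adjusted p = 0.00976). Among the 39 genes the smallest unadjusted p for a difference was that of Peg3, which was at 15.6 and 3.36 CPM at P7 and 19.5 and 22.02 at P21 in Car4+ cells (difference -3.69 ± 0.60, adjusted p = 0.703). Hspa1a was at 0.024 and 0 CPM at P7 and 961 and 539 at P21 in Car4+ cells, and Mest at 1964 and 873 against 241 and 259. No difference between the classes passed for any of the 39 called genes, which does not show that they act alike, since the Car4+ sums rest on few cells.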

How the data were processed

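The authors deposited whole-number read counts per gene and cell, not normalized, of 18072 gene symbols. Per the submitters' processing notes STAR 2.5.2b and HTSeq 0.10 were used and the build was GRCh38, a human one, so gene positions behind the counts were not used; promoter sequences are from RefSeq, GRCm38.p6. Subtype labels are the authors'; doublets were not called here. There are no molecular identifiers, so counting intervals (95%) and floors (3 reads over a group) cover counting error only.

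Reads were summed per mouse over Car4- cells and tested with edgeR 4.0.16 (TMM, filterByExpr, quasi-likelihood F test, R 4.3.3), 8 mice of 4 groups in 1 model, with Benjamini-Hochberg adjustment over all genes tested. CPM are reads per 1000000 of the sum. Errors are standard errors of the log2 change. P-values measure the spread between mouse names, and 2 mice against 2 cannot give an exact p under 0.333. On simulated counts, 50 of 100 genes changed by 2 on the log2 scale, 99 of 100 changed by 4 and 10 of 14263 unchanged genes were called. The changed genes were drawn only from those above a minimum mean CPM, so their shares do not cover genes of lower level.

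Named genes were the called genes with at least 50 mean CPM and a read in at least 25% of cells at the higher age, up to 15 a direction, then the 3 highest and every called member of 30 lists, and the called class differences; other genes were named after seeing values. The members and lists were chosen with earlier results of these data known. Alternatives were DESeq2 1.42.0, RLE, no filter, CD31-gate cells, label-matched cells, cells thinned to 50000 reads, limma 3.58.1 on log2(mean CPM + 1), 4 mice alone, sex as a block, each mouse left out, cells without markers of other tissues, and the male and the female pair of 1 run.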

Additional observations from a re-analysis of the deposited data

Results flagged for a closer look

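The change of Gap43 from P7 to P21 differed between Car4- and Car4+ capillaries by 10.36 on the log2 scale by the interaction term (edgeR adjusted p = 0.00976). Both Car4- mice of P21 were above both of P7 (27.6 and 23.2 against 10.6 and 5.64 CPM), and both Car4+ mice of P21 were below both of P7 (0.219 and 0.0564 against 65.0 and 30.5 CPM). In Car4- cells the change alone did not pass (log2 change 1.75 ± 0.78, adjusted p = 0.455), and 5 cells held 68.7% of the Gap43 reads at P21. Among CD31-gate cells alone the difference was 7.97 with an adjusted p of 1. It was 10.46 (0.0618) without the P7 female, 10.24 (0.138) without the P7 male, 9.67 (0.115) without the P21 male and 10.37 (0.0523) without the P1 male, adjusted p in parentheses.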

How the results depend on the processing

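The 39 called genes kept their direction in every alternative and none stayed called in all 18 that give a test. DESeq2 called 692 genes (364 higher, 328 lower), the fit without a filter 77 (50 and 27), thinned cells 69 (40 and 29), the 4 mice alone 74 (58 higher), limma 10 (7 and 3), and the cells without other markers 14 (10 and 4); the cause was not tested. RLE called 39, CD31-gate cells 31, label-matched cells 42. Leaving out 1 mouse gave 1 to 83 calls (0 to 59 higher, 1 to 26 lower): 1 without the P7 female, 8 without the P7 male, 2 without the P21 male, 38 without the P21 female (18 of the 39), 83 and 79 without the P1 female and male. The class difference gave 180 genes in DESeq2, 0 in CD31-gate cells (edgeR, 514 at an unadjusted p under 0.05) and 0 to 2 with a mouse left out. With sex as replicate block 29 genes were called, 27 of the 39. Deviations of the females from their groups correlated at -0.04 to 0.11 over all genes tested. With 1 mouse of each sex per group, the part of sex in the called genes was not tested. List medians printed in the report kept their sign in all 19 alternatives; the median of all genes tested ran from -0.16 to 0.21. Depth limits genes near 0 reads at an age.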
